A study of Mus musculus with 9 samples.

Results

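The 10 genes described here encode cytosolic and mitochondrial heat-shock chaperones and their partners: Hspa1a, Hspa1b, Hspa8, Hsph1, Bag3, Dnajb1, Hsp90aa1, Hspb1, Hspd1 and Hspe1. They were chosen by symbol, with earlier results of these data known, as 10 of the 22136 genes measured. All 10 were among the 13178 genes with enough counts to be tested. RNA came in bulk from immune cells sorted for CD45, the surface protein that marks blood-derived cells, out of YUMM 2.1 tumours, a transplanted mouse melanoma line grown under the skin of immunocompetent C57BL/6J mice. The mice were dosed once tumours measured 20 to 50 mm3 with an isotype antibody (IgG control), with anti-B7-H3, which binds a checkpoint ligand, or with anti-PD1, which blocks a receptor that restrains T cells, and each group has 3 libraries. The age and sex of the mice, the doses and the time of sampling are not stated in the labels, and an arm that combined antibodies was not analysed here. Whether the 3 replicates of a group came from separate mice is not stated either, so p-values measure only the spread between these samples, which may be technical.

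Heat-shock chaperones bind unfolded or misfolded proteins and help them fold, refold or be degraded. Heat, oxidative stress and other damage to proteins release the transcription factor HSF1, which binds repeats of the short units GAA and TTC in the promoters of these genes and raises their transcription within minutes. Inducible HSP70 (Hspa1a and Hspa1b) and its constitutive relative HSC70 (Hspa8) work in a cycle in which Dnajb1 delivers substrates and stimulates ATP hydrolysis, and Hsph1 and Bag3 exchange the nucleotide. Hsp90aa1 matures client proteins such as kinases and steroid receptors, Hspb1 is a small heat-shock protein that holds unfolded proteins without ATP, and Hspd1 with its lid Hspe1 forms the folding chamber of mitochondria. In immune cells these genes also respond to activation.

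Hspa1a and Hspa1b sit side by side on the minus strand of chromosome 17. Averaged over the 9 libraries, they had the highest levels per length of all members, so their promoters are shown first. The 250 bases before each RefSeq start site (GRCm38.p6, chr17:34972157-34972406 for Hspa1a and chr17:34959239-34959488 for Hspa1b) are identical at 247 positions. The 3 differences, written as the Hspa1a base, the position from the 5′ end of the printed run and the Hspa1b base, are C44T, T47C and T249G. Capitals mark the pair of GAA and TTC units, which begins 104 bases before the start site in both.
Hspa1a: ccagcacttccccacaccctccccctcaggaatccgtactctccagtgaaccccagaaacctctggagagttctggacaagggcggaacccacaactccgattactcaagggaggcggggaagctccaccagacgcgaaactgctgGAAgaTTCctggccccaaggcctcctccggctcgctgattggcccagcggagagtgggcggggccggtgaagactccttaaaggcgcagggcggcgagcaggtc
Hspa1b: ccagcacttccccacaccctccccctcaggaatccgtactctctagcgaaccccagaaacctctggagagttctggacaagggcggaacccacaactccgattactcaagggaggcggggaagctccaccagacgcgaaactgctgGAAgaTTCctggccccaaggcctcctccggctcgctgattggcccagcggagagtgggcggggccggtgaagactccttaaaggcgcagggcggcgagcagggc

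Hspd1 and Hspe1 are neighbours on chromosome 1 and are read in opposite directions. The same stretch (chr1:55088054-55088081) holds 4 alternating units for both. For Hspd1 the stretch precedes 1 RefSeq start site but lies inside the gene as annotated in GENCODE. The window of the other Hspd1 start site (chr1:55088194-55088493) held no motif. Hspb1 has a pair of units at chr5:135887792-135887819 and another at chr5:135887812-135887839, both on the plus strand. Hsph1, on the minus strand, has a pair of units before its RefSeq start sites at chr5:149636352-149636379. A run of 3 alternating units follows those sites at chr5:149636287-149636307. The gene as annotated in GENCODE begins at 149636376, so the pair of units lies inside it. These stretches are shown, each on the strand of its gene and with the units in capitals, because they hold units of the kind that HSF1 is known to bind.
Hspe1: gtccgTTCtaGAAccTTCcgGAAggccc
Hspd1: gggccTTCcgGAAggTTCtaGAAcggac
Hspb1, upstream: ttcaacaagaGAAgtTTCcagatggggg
Hspb1, downstream: gatgggggcaGAAccTTCctggccccgc
Hsph1, before the start sites: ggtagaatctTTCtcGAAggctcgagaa
Hsph1, after the start sites: ctgcagaTTCtgGAAagTTCt

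The windows searched ran from 250 bases before to 50 after each start site, on both strands, for GAANNTTC and TTCNNGAA, which can overlap each other. A window was at hand for 8 members, and 7 of them held at least 1 of these motifs, against 15.1% of 32851 windows of the same length. Members were counted by gene, with a match in any of their 11 windows, while the background counts single windows. Bag3 had its match 43 bases after the start site, and Dnajb1 had none in its windows. The longer motif GAANNTTCNNGAA, on either strand, was found for Hspd1, Hspe1 and Hsph1 (3 of 8 members) and in 0.603% of all windows. For both motif lengths, the matches of Hspd1 and Hspe1 are the same stretch of the genome, counted for each gene. Hsp90aa1 and Hspa8 had no window. A match of letters is a description of the sequence and not a measured binding site.

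Library totals ran from 14487012 to 31533106 estimated counts, so that 3 counts correspond to 0.0951 to 0.207 CPM, the unit of counts put on a common library size. No member was at 0 in any library, and the least abundant, Bag3, had at least 150 counts. IgG control 2 stood apart on the first principal component (192 against -54.9 to 31.1 elsewhere) and had 1896 tested genes at 0, and anti-PD1 3 stood apart on the next and had 1248. The CD45 gene Ptprc lay between 1718 and 2913 CPM in the 9 libraries, and the 12 melanoma markers summed to between 16.6 and 38.8 CPM, with Dct at 0 in all 9 libraries. In bulk RNA, a change in the share of a cell type and a change in RNA per cell cannot be told apart.

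With anti-PD1, 3 of the 10 members rose against the IgG control, namely Hspb1, Bag3 and Hsp90aa1, and none fell. With anti-B7-H3 no member passed the test. A gene was called when its p from edgeR's quasi-likelihood test, adjusted over all 13178 tested genes by Benjamini-Hochberg, was under 0.05. The background of such calls was 1.74% of all tested genes for anti-PD1 (1.72% higher, 0.0152% lower) and 0.85% for anti-B7-H3 (0.827% higher, 0.0228% lower). At an unadjusted p under 0.05 in edgeR were 8 members with anti-PD1 and 4 with anti-B7-H3 (Hspa1a, Hspa1b, Hspb1 and Bag3), beside 10.9% and 8.81% of all tested genes. DESeq2 called 3 members with anti-B7-H3 (Hspa1b, Hspb1 and Bag3). The log2 fold changes of members were above 0 for 10 of 10 with anti-PD1 and 9 of 10 with anti-B7-H3, while 47.2% and 52.1% of all tested genes were above 0. The members' median was 1.23 with anti-PD1 and 0.57 with anti-B7-H3, beside medians of -0.0384 and 0.0226 over all tested genes. For 7 members every anti-PD1 library lay above every IgG control library, and for 6 members every anti-B7-H3 library did so. The shares of all tested genes for which this held were 9.99% and 9.96%. Both comparisons use the same 3 IgG control libraries, so they are not independent of each other. Because earlier results were known when the members were chosen, the shares of all tested genes are a description and not a test.

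Anti-PD1 2 was the highest of the 9 libraries for all 10 members, and an IgG control library was the lowest for all 10. Without anti-PD1 2, no member was called in the anti-PD1 comparison, and without IgG control 1 none was either. A single member was called without IgG control 2 (Hsph1), without any 1 of the anti-B7-H3 libraries (Hspb1) or without anti-PD1 3 (Bag3). With library totals in place of TMM factors Bag3 and Hsp90aa1 were not called (adjusted p 0.0616 and 0.0773, edgeR), and limma-voom called Hspa1a and Hspa1b in place of the 3. Without both libraries that stood apart, 1 member, Bag3, was called with anti-PD1 and none with anti-B7-H3.

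**Figure D1:**
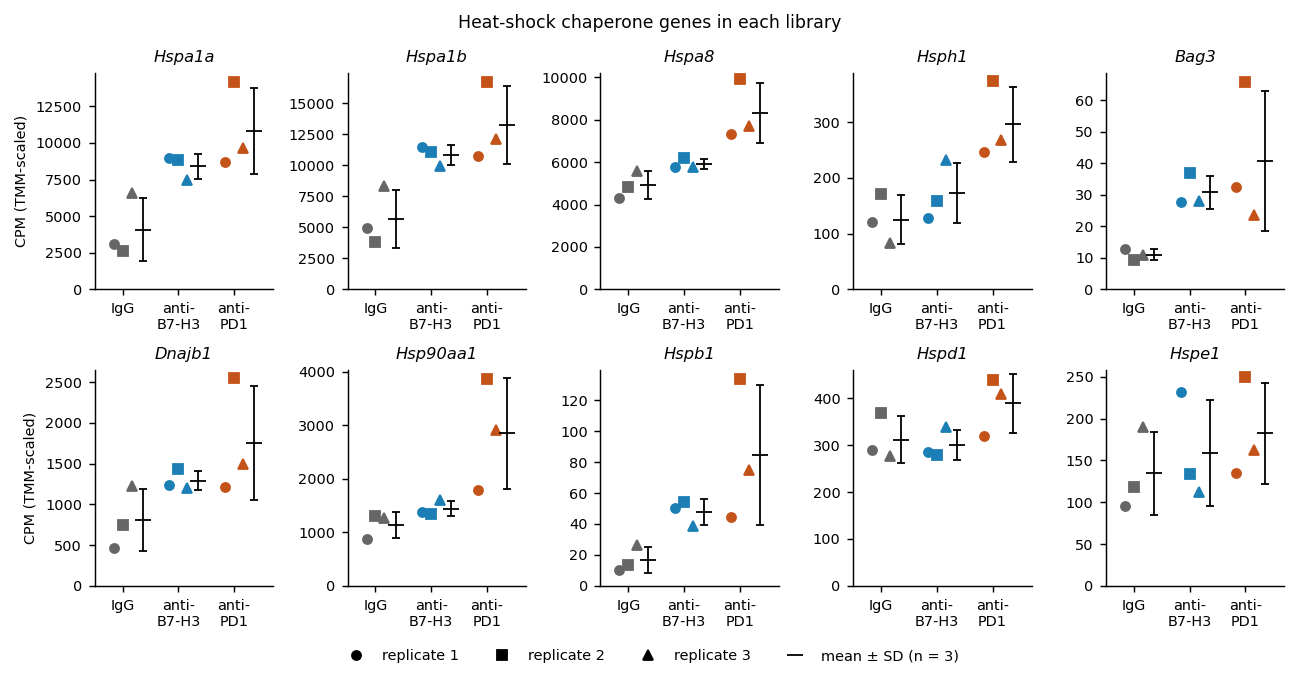
Level of each chaperone gene in each library, in CPM on scaled library sizes (y axis, from 0 and different in each panel), by antibody (x axis). Symbols are the replicates and black bars the mean ± SD of 3 libraries. The square of anti-PD1 2 is the highest point in all 10 panels.

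Among the inducible HSP70 genes, Hspa1a (chromosome 17, 34969190 to 34972156 on GRCm38, a gene of 1 exon) stood at 3077, 2598 and 6556 CPM in IgG control 1, 2 and 3. It stood at 8993, 8809 and 7445 CPM with anti-B7-H3 and at 8687, 14150.4 and 9654 CPM with anti-PD1. All 6 libraries of the antibody groups lay above the 3 controls, of which IgG control 3 was the nearest. The log2 fold change was 1.05 ± 0.34 (SE) with anti-B7-H3 (adjusted p 0.353, edgeR) and 1.41 ± 0.35 with anti-PD1 (adjusted p 0.0812), and neither passed the test.

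Hspa1b (chromosome 17, 34956436 to 34959238) stood at 4926, 3844 and 8296 CPM in the controls, at 11478, 11073 and 9947 CPM with anti-B7-H3 and at 10759, 16729 and 12110.3 CPM with anti-PD1. The order of the libraries was close to that of Hspa1a, again with no overlap between the controls and either antibody group. Its log2 fold changes were 0.93 ± 0.30 (adjusted p 0.333, edgeR) and 1.21 ± 0.30 (adjusted p 0.0812). IgG control 3 held more of both transcripts than the other controls. Without it, Hspa1a and Hspa1b were called in both comparisons, at 1.57 and 1.30 with anti-B7-H3 (adjusted p 0.0244 and 0.0445, edgeR) and at 1.93 and 1.59 with anti-PD1 (adjusted p 0.00742 and 0.0136).

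The coding sequences of the pair are identical at 1918 of 1926 aligned bases, and 88.4% of the 31-base words of Hspa1a occur in Hspa1b, so how reads were divided between them is uncertain. The share of the pair assigned to Hspa1a was 38.5% to 45.8% in the 9 libraries. A gene model on the opposite strand, Gm20481, overlaps the coding exon of Hspa1a, and the library kits do not mark strand. It took 6.57% to 9.44% of the counts of the 3 genes together. Counted as 1 gene, Hspa1a and Hspa1b gave a log2 fold change of 0.98 ± 0.32 with anti-B7-H3 (adjusted p 0.346, edgeR) and 1.30 ± 0.32 with anti-PD1 (adjusted p 0.0828), close to the single values. With Gm20481 added these were 0.97 and 1.29 (adjusted p 0.347 and 0.0839).

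Hspa8, the constitutive HSC70 gene (chromosome 9, 40800984 to 40810087), stood at 4295, 4834 and 5589 CPM in the controls, at 5748, 6201 and 5788 CPM with anti-B7-H3 and at 7296, 9897 and 7695 CPM with anti-PD1. The 3 groups did not overlap, with the controls lowest and anti-PD1 highest. The differences were smaller than those of the inducible pair, at a log2 fold change of 0.27 ± 0.20 with anti-B7-H3 (adjusted p 0.811, edgeR) and 0.76 ± 0.21 with anti-PD1 (adjusted p 0.119).

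Of the partners of HSP70, Dnajb1 encodes an HSP40 that brings substrates to it (chromosome 8, 83608193 to 83612653). It stood at 469, 741 and 1221 CPM in the controls, at 1243, 1428 and 1202 CPM with anti-B7-H3 and at 1219, 2547 and 1501 CPM with anti-PD1. IgG control 3 lay within the range of both antibody groups, and the other controls lay below them. The log2 fold changes were 0.67 ± 0.35 (adjusted p 0.656, edgeR) and 1.11 ± 0.36 (adjusted p 0.214).

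Hsph1, the HSP110 nucleotide exchange factor (chromosome 5, 149614287 to 149636376), stood at 121, 170.4 and 82.6 CPM in the controls, at 127, 159 and 232 CPM with anti-B7-H3 and at 246, 373 and 269 CPM with anti-PD1. Here IgG control 3 was the lowest library, unlike for Hspa1a, and anti-B7-H3 overlapped the controls. All anti-PD1 libraries lay above the other 6, at a log2 fold change of 1.25 ± 0.31 against the controls (adjusted p 0.0812, edgeR), while anti-B7-H3 gave 0.47 ± 0.30 (adjusted p 0.75). Without IgG control 2, Hsph1 was called with anti-PD1, at 1.56 (adjusted p 0.0354).

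Bag3, a co-chaperone that links HSP70 to small heat-shock proteins and to autophagy (chromosome 7, 128523616 to 128546981), was the least abundant member. It stood at 12.9, 9.28 and 10.8 CPM in the controls, at 27.8, 36.9 and 27.9 CPM with anti-B7-H3 and at 32.5, 65.7 and 23.6 CPM with anti-PD1. The controls lay close together and below all 6 other libraries. Bag3 rose with anti-PD1 by a log2 fold change of 1.88 ± 0.38 (adjusted p 0.0335, edgeR). With anti-B7-H3 its log2 fold change was 1.49 ± 0.38 (adjusted p 0.162). When each of the 9 libraries was left out in turn, the anti-PD1 call held only without anti-PD1 3, and the adjusted p ran from 0.0195 to 0.134. The lowest fold change, 1.35, came without anti-PD1 2.

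Hspb1, the small heat-shock protein HSP25 of mice (chromosome 5, 135887919 to 135889563), had the largest fold change among the members in both comparisons with the controls. It stood at 10.3, 13.3 and 26.2 CPM in the controls, at 50.5, 54.2 and 38.6 CPM with anti-B7-H3 and at 44.8, 133 and 75.1 CPM with anti-PD1. All 6 libraries of the antibody groups lay above the controls, and anti-PD1 2 was far above the rest. Hspb1 rose with anti-PD1 by a log2 fold change of 2.35 ± 0.44 (adjusted p 0.0236, edgeR), and its log2 fold change with anti-B7-H3 was 1.52 ± 0.43 (adjusted p 0.236). The anti-PD1 call held in 5 of the 9 fits without 1 library. It was lost without IgG control 1 (adjusted p 0.0666), IgG control 2 (0.0586), anti-PD1 2 (0.0933) or anti-PD1 3 (0.0574).

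Hsp90aa1, the stress-inducible cytosolic HSP90 gene (chromosome 12, 110690605 to 110702728), stood at 868, 1298 and 1262 CPM in the controls, at 1383, 1344 and 1599 CPM with anti-B7-H3 and at 1792, 3865 and 2909 CPM with anti-PD1. The 3 groups did not overlap, although anti-B7-H3 2 lay only just above IgG control 2. Hsp90aa1 rose with anti-PD1 by a log2 fold change of 1.32 ± 0.28 (adjusted p 0.0432, edgeR), and anti-B7-H3 gave 0.34 ± 0.28 (adjusted p 0.838). The call held only without anti-PD1 1 among the 9 fits that left out 1 library, with adjusted p from 0.0235 to 0.184. The lowest fold change in them was 1.04, without anti-PD1 2.

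Neither gene of the mitochondrial chaperonin passed the test in any comparison. Hspd1, which encodes HSP60 (chromosome 1, 55077835 to 55088243), stood at 290, 369 and 277 CPM in the controls, at 286, 279 and 338 CPM with anti-B7-H3 and at 319, 438 and 410.1 CPM with anti-PD1. All 3 groups overlapped, with log2 fold changes of -0.05 ± 0.20 for anti-B7-H3 (adjusted p 0.978, edgeR) and 0.32 ± 0.20 for anti-PD1 (adjusted p 0.62). The 95% interval with anti-B7-H3 ran from -0.48 to 0.38, and the sign was positive in limma-voom (0.0072) and with length-scaled counts (0.1057).

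Hspe1, which encodes the co-chaperonin HSP10 (chromosome 1, 55088132 to 55091307), stood at 95.5, 118 and 190.5 CPM in the controls, at 231, 134 and 113 CPM with anti-B7-H3 and at 135, 250.3 and 162 CPM with anti-PD1. The groups overlapped throughout, and the log2 fold changes were 0.24 ± 0.35 (adjusted p 0.917, edgeR) and 0.44 ± 0.35 (adjusted p 0.734). The high libraries of Hspe1 (anti-PD1 2, anti-B7-H3 1 and IgG control 3) were not those of Hspd1 (anti-PD1 2, anti-PD1 3 and IgG control 2), apart from anti-PD1 2. Hspe1 is short, with 309 coding bases, and shares 75.6% of its 31-base words with another annotated gene, which was assigned at most 12 counts in a library.

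**Figure D2:**
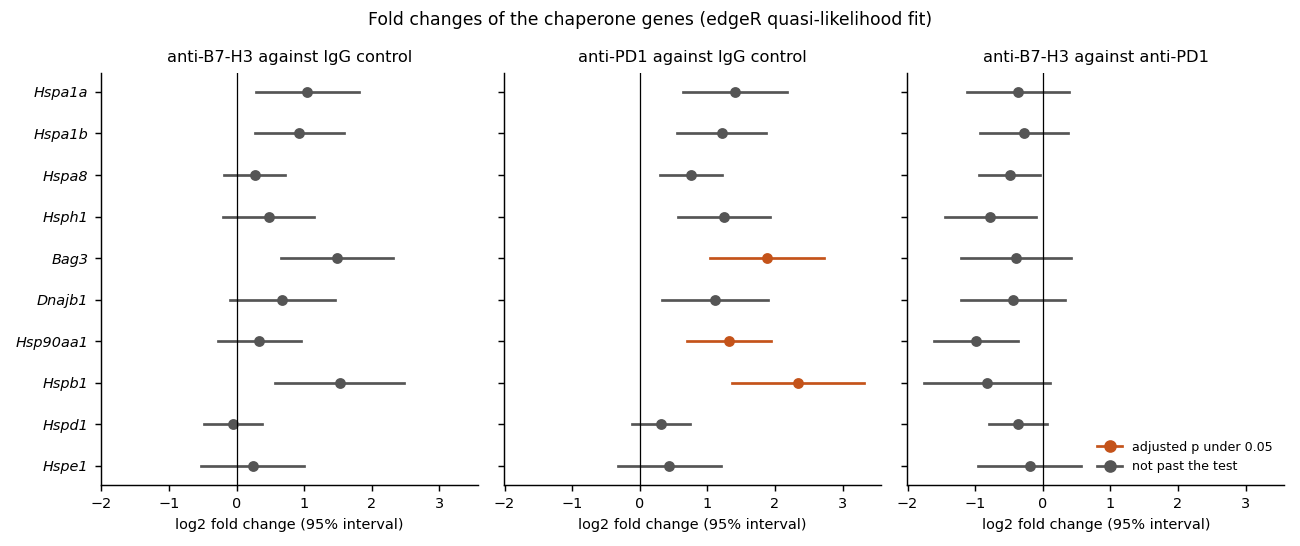
Log2 fold change of each member (points) with its 95% interval (lines) from the edgeR fit, for the 3 comparisons. Orange marks an adjusted p under 0.05, which Bag3, Hsp90aa1 and Hspb1 reached with anti-PD1, and all 10 points lie below 0 in the comparison of anti-B7-H3 with anti-PD1.

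Set directly against each other, anti-B7-H3 and anti-PD1 gave no called member, and no call among all tested genes in edgeR (0%), where 425 genes (3.23%) and 3 members (Hsph1, Hsp90aa1 and Hspa8) had an unadjusted p under 0.05. DESeq2 called 15 genes and limma-voom 2. All 10 members were lower with anti-B7-H3, with a median log2 difference of -0.42 beside 0.0364 over all tested genes, of which 53.8% were above 0. For Hsph1, Hsp90aa1 and Hspa8 every anti-B7-H3 library lay below every anti-PD1 library, which held for 6.4% of tested genes. Hsp90aa1 had the largest difference, -0.99 with a 95% interval from -1.60 to -0.37 (adjusted p 1, edgeR). Hsph1 followed among these 3 at -0.78 (-1.45 to -0.11) and Hspa8 at -0.49 (-0.94 to -0.04). For the inducible pair the difference was -0.36 (-1.12 to 0.39) for Hspa1a and -0.29 (-0.94 to 0.36) for Hspa1b. The intervals of Hspb1 (-1.75 to 0.11) and Bag3 (-1.21 to 0.42) also held differences of over 1 log2 unit, so similar levels under both antibodies are not shown. Without anti-PD1 2, the signs of Bag3 and Hspe1 turned, to 0.14 and 0.10.

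Together the 10 genes made up 1.53%, 1.56% and 2.21% of all estimated counts in the IgG control libraries. They made up 2.64%, 2.99% and 2.75% with anti-B7-H3 and 2.95%, 4.66% and 3.44% with anti-PD1. Every library of the antibody groups was above every control. The ratio of the counts of Hspa1a and Hspa1b to those of Hspa8, inducible to constitutive HSP70 at nearly equal coding lengths (1926, 1929 and 1941 bases), was 1.86, 1.33 and 2.66 in the controls. It was 3.56, 3.21 and 3.00 with anti-B7-H3 and 2.67, 3.12 and 2.83 with anti-PD1. IgG control 3 thus lay just below the lowest anti-PD1 library, and the anti-B7-H3 mean (3.26 ± 0.28, SD, n = 3) was the highest of the 3 groups.

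For cytosolic HSP90 the pattern of the groups was another one. The ratio of the counts of Hsp90aa1 to those of the constitutive Hsp90ab1 was 0.552, 0.745 and 0.461 in the controls, 0.603, 0.574 and 0.643 with anti-B7-H3 and 0.67, 1.04 and 1.08 with anti-PD1. Anti-B7-H3 lay inside the range of the controls, while anti-PD1 2 and 3 lay above all other libraries. Hsp90ab1 itself had log2 fold changes of 0.23 ± 0.24 and 0.59 ± 0.25 (adjusted p 0.876 and 0.413, edgeR). No test was run on these shares and ratios.

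**Figure D3:**
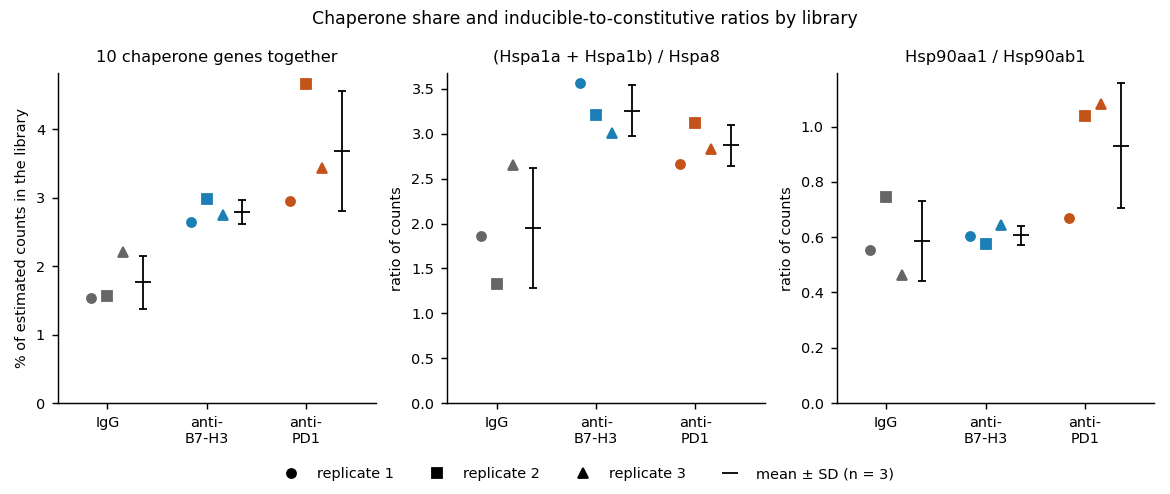
Share of all estimated counts taken by the 10 chaperone genes (left, in percent), the count ratio of Hspa1a plus Hspa1b to Hspa8 (middle) and that of Hsp90aa1 to Hsp90ab1 (right), by antibody. Symbols are replicates and black bars the mean ± SD of 3 libraries. The share and the HSP70 ratio are lowest in the controls, and the HSP90 ratio is above 1 only in anti-PD1 2 and 3.

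Levels of different genes were compared per length, in TPM (counts divided by the deposited effective length, which differs from the coding length, and scaled to a common total). Averaged over the 9 libraries, Hspb1 (56.0 ± 40.9 TPM, SD), Hsph1 (56.7 ± 23.1) and Bag3 (8.92 ± 5.46) were at the low end, and Hspa1b (2833 ± 1047), Hspa1a (2217 ± 955) and Hspa8 (1895 ± 453) at the high end. Between them came Hsp90aa1 (1073 ± 546), Dnajb1 (808 ± 349), Hspe1 (559 ± 129) and Hspd1 (135 ± 28.8). The TPM of Hsp90aa1 came largely from short transcript models. In anti-PD1 2 its 2202-base transcript held 68.7% of the gene's counts but had 642 TPM. The models of 605 and 295 bases had 1334 and 195.6 TPM there. The place of Hsp90aa1 in this order, also against Dnajb1, thus rests on these models. Hspa1b exceeded Hspa1a in all 9 libraries, but that order rests on the division of shared reads. Neighbours whose order changed between libraries were Hspa1a and Hspa8 (the first higher in 7 of 9), Hsp90aa1 and Dnajb1 (6 of 9), Dnajb1 and Hspe1 (7 of 9), and Hsph1 and Hspb1 (4 of 9). Hspa8 exceeded Hspa1a in IgG control 1 and IgG control 2, and it also exceeded Hspa1b in IgG control 2. The other neighbours kept their order in all 9 libraries. The genes for the mitochondrial chamber and its lid were unequal, with an Hspe1 to Hspd1 ratio of TPM between 2.88 and 6.82. The size of this ratio depends on the effective length assigned to the short Hspe1 (309 coding bases).

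Across the 9 libraries the 8 cytosolic genes were all positively correlated with each other. Pearson's r of log2 CPM ran from 0.504 to 0.997 over their 28 pairs, with a median of 0.858, while the 17 pairs that include Hspd1 or Hspe1 ran from 0.136 to 0.839 with a median of 0.587. The split was not clean. Hsph1 had an r of 0.839 with Hspd1 against 0.504 with Hspa1a, and Hsp90aa1 had 0.831 against 0.74. Hspd1 and Hspe1 had an r of only 0.23 with each other. These values describe 9 libraries that share group differences and library quality, and the pair at the top end shares reads. The non-members most like Hspa1a plus Hspa1b over the 9 libraries were Btg2 (r = 0.968), Ifitm3 (0.967), Lgals3 (0.967), Ppm1h (0.961) and Ftl1 (0.96). Those most like Hspd1 were Ccnl1 (0.952), Arl15 (0.948), Mllt11 (0.921), D430019H16Rik (0.908) and Gm3336 (0.901). Group means were only 1.95 to 3.23 CPM for Mllt11, 0.185 to 0.622 CPM for D430019H16Rik and 0.0761 to 1.28 CPM for Gm3336. The r values of Mllt11, D430019H16Rik and Gm3336 thus rest on few counts. None of the 5 genes most like the HSP70 pair passed the test in either comparison with the controls. With anti-PD1, for example, Lgals3, a galectin abundant in macrophages, gave 1.21 ± 0.28 (adjusted p 0.0671, edgeR), and Btg2, an early-response antiproliferative gene, gave 0.95 ± 0.24 (adjusted p 0.0957).

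In a mixed list of other heat-shock and proteotoxic stress genes, 5 of the 25 tested genes rose with anti-PD1 and none with anti-B7-H3. With anti-B7-H3, 8 were higher at an unadjusted p under 0.05 in edgeR, and DESeq2 called 4. None fell in either comparison. Their median log2 fold changes were 0.81 and 0.40. Gadd45b, a stress sensor, stood at 54.4 to 77.5 CPM in the controls, 98.7 to 142.8 CPM with anti-B7-H3 and 181 to 222 CPM with anti-PD1. It rose with anti-PD1 by 1.57 ± 0.21 (adjusted p 0.00418, edgeR). Also higher with anti-PD1 were Rgs2, a regulator of G-protein signalling (1.24 ± 0.21, adjusted p 0.0149), and Ier5, which is known to promote HSF1 activity (0.81 ± 0.16, adjusted p 0.0339). The other 2 were Dnaja4, which is counted again in the HSP40 family described next, and the collagen chaperone gene Serpinh1 (5.50 ± 1.14, adjusted p 0.0367), named after its values were seen. Serpinh1 had a mean of only 0.369 CPM in the controls against 17.3 CPM with anti-PD1, so the size of its fold is uncertain. The count of 5 rested on single libraries: it was 1 without anti-PD1 2 or without anti-PD1 3, 2 without anti-B7-H3 2, 3 without anti-PD1 1, IgG control 3 or anti-B7-H3 3, and 5 without any of the other 3, while DESeq2 called 10.

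In the HSP40 family, 1 of 40 tested genes rose with anti-PD1 and none with anti-B7-H3, beside 1.74% and 0.85% of all tested genes called. At an unadjusted p under 0.05 in edgeR, 3 were higher and 4 lower with anti-PD1. With anti-B7-H3, 1 was higher and 2 lower. Dnaja4, itself heat-inducible, stood at 34.7, 29.8 and 22.3 CPM in the controls, at 36.7, 46.0 and 59.2 CPM with anti-B7-H3 and at 55.9, 122.9 and 100.3 CPM with anti-PD1. It rose with anti-PD1 by 1.68 ± 0.32 (adjusted p 0.0258, edgeR). No gene of the family was called without IgG control 3, anti-B7-H3 2, anti-PD1 2 or anti-PD1 3, and DESeq2 called 3. Dnaja1 (0.93 ± 0.22, adjusted p 0.0682) did not pass. The family's median was -0.12 with anti-PD1 and -0.02 with anti-B7-H3, near the medians of all tested genes. Among 9 other HSP70 genes, Hspa2 rose with anti-PD1 from 14.1 ± 2.37 to 41.4 ± 6.37 CPM (SD, n = 3; log2 fold change 1.56 ± 0.29, adjusted p 0.0209, edgeR), and none passed with anti-B7-H3. No gene of this list was called without IgG control 1 or without any 1 of the 3 anti-PD1 libraries. The list's medians were -0.12 and 0.02.

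No gene passed in either comparison among the 4 tested HSF genes and their binding protein, 11 other HSP70 exchange factors and cofactors, 19 HSP90 family genes and co-chaperones, 3 other small heat-shock proteins, 15 subunits of the TRiC chaperonin and prefoldin, 19 genes of mitochondrial protein quality control and 31 proteasome subunits. Of these 102 tested genes, 3 were lower and 0 higher at an unadjusted p under 0.05 in edgeR with anti-B7-H3, and 4 were lower and 3 higher in the anti-PD1 comparison, where DESeq2 called 2. Stip1, which bridges HSP70 and HSP90, gave 0.36 ± 0.15 with anti-PD1 (adjusted p 0.414, edgeR), and Tfam, the mitochondrial transcription factor, gave -0.97 ± 0.23 (adjusted p 0.0683). Hsf1 had 57.8, 50.2 and 83.8 CPM in the controls and 74.8 to 86.4 CPM in the anti-B7-H3 and anti-PD1 libraries, with log2 fold changes of 0.27 ± 0.22 and 0.38 ± 0.22 in the same order (adjusted p 0.829 and 0.577). Cryab, which encodes the small heat-shock protein alpha B crystallin, had 7 counts in IgG control 1, none in the other controls and at most 38 with anti-B7-H3, against 80 to 149 counts with anti-PD1, and did not pass the test (adjusted p 0.347). The medians of the TRiC, mitochondrial and proteasome lists were -0.13, -0.12 and -0.12 with anti-PD1 and -0.08, 0.00 and -0.05 with anti-B7-H3.

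Of 20 tested chaperones and stress genes of the endoplasmic reticulum, 3 rose with anti-PD1 and none with anti-B7-H3 (4 were higher at an unadjusted p under 0.05 in edgeR, and DESeq2 called 1), at list medians of 0.41 and 0.26. They were Creld2 (1.33 ± 0.21, adjusted p 0.00992, edgeR), Sdf2l1 (0.86 ± 0.18, adjusted p 0.0405) and Xbp1 (1.35 ± 0.29, adjusted p 0.0468), of which Xbp1 encodes a transcription factor of the unfolded-protein response that plasma cells also need. The count was 2 without IgG control 2 or IgG control 3 and 1 without any of the other 7 libraries, and DESeq2 called 5. Plasma cell markers, which include Xbp1, summed to 213.5 to 552.9 CPM in the controls, 608 to 816 CPM with anti-B7-H3 and 1236 to 1666 CPM with anti-PD1, and 4 of 10 rose with anti-PD1. That count was 0 without anti-B7-H3 2, anti-B7-H3 3 or any 1 of the anti-PD1 libraries, 1 without anti-B7-H3 1, 2 without IgG control 1 or IgG control 2 and 4 without IgG control 3, and DESeq2 called 7. Their part in these differences was not tested.

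**Figure D4:**
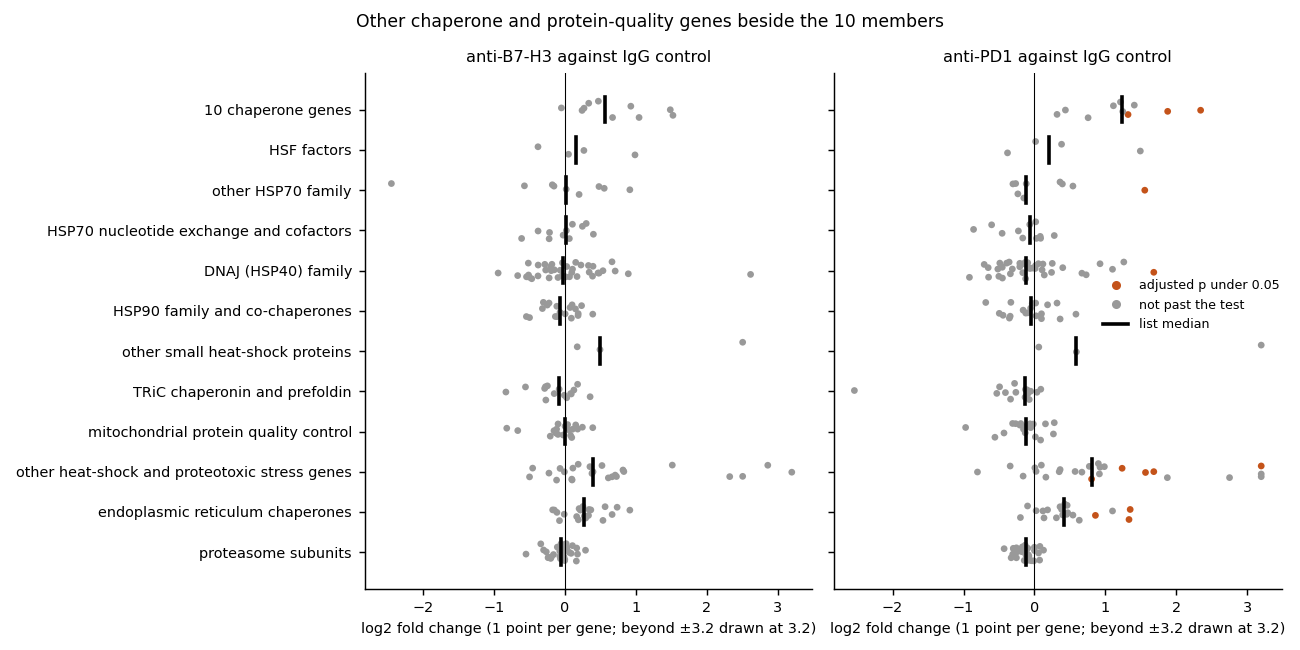
Log2 fold change of every tested gene (points, x axis; values beyond 3.2 are drawn at 3.2) in the 10 chaperone genes and in 11 other lists (y axis), with list medians as black bars and called genes in orange. Called genes appear only in the anti-PD1 panel, in the members, the other HSP70 genes, the HSP40 family, the stress genes and the endoplasmic reticulum list.

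Immediate-early genes, which are induced within minutes by activation or stress, moved in the same comparisons. Of 24 tested, 13 rose under anti-PD1 and 7 under anti-B7-H3, at medians of 1.10 and 0.85. For anti-PD1 the count was 7 without anti-PD1 1, 8 without anti-PD1 3 and 9 to 13 without any of the others, and for anti-B7-H3 it was 4 without anti-B7-H3 2 or anti-B7-H3 3 and 6 to 10 without any of the others. DESeq2 called 20 and 15. Atf3, a stress-responsive transcription factor, rose by 3.46 ± 0.27 and 3.13 ± 0.26 in the same order (adjusted p 0.00037 and 0.00104, edgeR). Their summed level was 9170 to 11880 CPM in the controls, 18750 to 18940 CPM with anti-B7-H3 and 19470 to 23870 CPM with anti-PD1. Anti-PD1 2, the highest library for every chaperone gene, was the lowest of its group in this sum.

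Macrophage and neutrophil markers also moved. Of 16 macrophage markers 8 rose in the anti-B7-H3 comparison and 9 in that of anti-PD1, and their sum was 157.7 to 360.6 CPM in the controls, 2147 to 3172 CPM with anti-B7-H3 and 1944 to 2504 CPM with anti-PD1. Csf1r, Fcgr1, Ms4a7 and Trem2 were at 0 in IgG control 2, and Mertk was at 0 there and in anti-PD1 3. Of 12 tested neutrophil markers 3 and 6 rose, and the sum of the 14 in the list was 101 to 129 CPM, 328 to 567 CPM and 803 to 1111 CPM in the same order of groups. With anti-B7-H3 the neutrophil count was 5 without IgG control 2 and 2 to 3 without any other library, and with anti-PD1 it was 3 without IgG control 3 or any 1 of the anti-PD1 libraries, 9 without IgG control 2 and 5 without any other library. DESeq2 called 9 and 10 neutrophil markers. Of the list, Camp was at 0 in 7 libraries, Ngp in 5, and Lcn2, Ly6g and Mmp8 in IgG control 2. The 18 T cell markers gave no call in either comparison. Their summed levels were 9348 to 12610, 7568 to 10680 and 7811 to 9608 CPM in the same order of groups. Against the controls, 17 of the 18 had a log2 fold change below 0 under each antibody. The medians were -0.30 for anti-B7-H3 and -0.34 for anti-PD1. At an unadjusted p under 0.05 in edgeR, 4 markers were lower in the anti-B7-H3 comparison, 2 were lower in that of anti-PD1 and 0 were higher in either. A separate list of 12 CD8 T and natural killer cell markers, also without a call, leaned the other way. Of these, 10 had a log2 fold change above 0 under anti-B7-H3 (median 0.40) and 9 under anti-PD1 (median 0.48). At the same unadjusted threshold 3 and 1 of them were higher and 0 lower. Their summed levels overlapped, at 1838 to 5471, 4650 to 5720 and 4362 to 4760 CPM in the same order of groups. The part of immediate-early expression and of cell types in the chaperone differences was not tested.

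**Figure D5:**
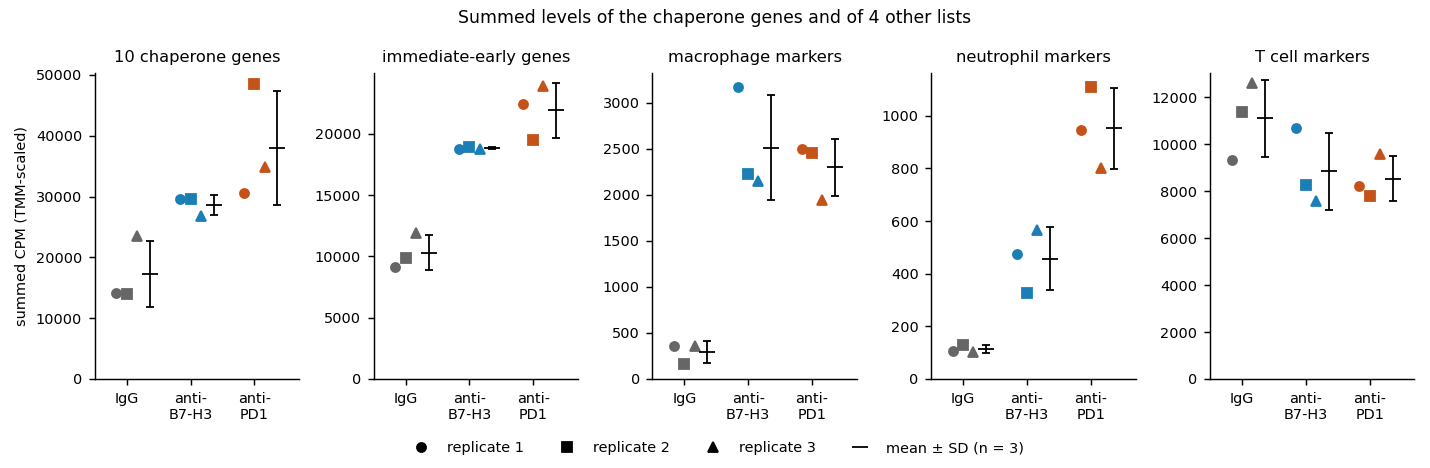
Summed CPM of the 10 chaperone genes, of 24 immediate-early genes and of macrophage, neutrophil and T cell markers in each library (y axes from 0 and different in each panel), by antibody. Symbols are replicates and black bars the mean ± SD of 3 libraries. The first 4 sums are lowest in the controls, while the T cell sum is not.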

How the data were processed

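The members and gene lists were chosen with earlier results of these data known. RNA (500 ng or more, RNA integrity 7.0 or higher) was amplified with SMART-Seq v4, depleted of ribosomal RNA and made into Nextera XT libraries, per the labels' protocols. FastQC 0.11.8 and the build GRCm38 are named per the submitters' processing notes, and the quantifier is not given in the sources used here. The deposited files give, per the file headers, an estimated count and a TPM value for each of 58083 transcripts. Of their lengths 87.3% are multiples of 3, so these are coding lengths. The deposited estimated counts are unnormalised, and the deposited TPM values are scaled per effective length and library.

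GENCODE M21 gave the gene of each transcript (57409 matched, 57105 with the same version, 674 left out), and counts were summed per gene and rounded. All 9 libraries entered 1 edgeR 4.0.16 fit (R 4.3.3) with TMM factors, filterByExpr by group and robust quasi-likelihood dispersions. The 3 comparisons were tested with glmQLFTest, with Benjamini-Hochberg adjustment over 13178 genes and a threshold of 0.05. CPM values use TMM-scaled library sizes, and 95% intervals come from the fit. Floors of 3 counts cover counting error only, since PCR reads without molecular identifiers are not independent. On simulated counts for anti-B7-H3 against the controls (11969 genes, 50 changed at each size), the fit recovered 6% of 2-fold, 60% of 4-fold, 70% of 8-fold and 88% of 16-fold changes, with 7 false calls. Promoter sequences are from RefSeq on GRCm38.p6, matched by symbol for 8 of the 10 members.

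Named genes are all members, up to 4 genes with the smallest p in any comparison from each other list described, and the 5 non-members with the highest r to Hspa1a plus Hspa1b and to Hspd1. Each result was recomputed under 20 other settings, among them DESeq2 1.42.0, limma-voom (limma 3.58.1), other scalings and filters, the replicate number as a block and leaving out each library. A further 2 settings were added after seeing the data.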

Additional observations from a re-analysis of the deposited data

How the results depend on the processing

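The main counts are 0, 3 and 0 called members and 112, 229 and 0 called genes, for anti-B7-H3 against the controls, anti-PD1 against the controls and anti-B7-H3 against anti-PD1. DESeq2 called more, with 3 and 8 members and 394, 660 and 15 genes. For anti-PD1 against the controls, members called were 6 with no filter, 1 with library totals alone, 0 with only the 6 libraries compared and 1 without the pair of libraries that stand apart. Limma-voom called 2 members there, Hspa1a and Hspa1b, and not the 3 of edgeR, and 2 genes between the antibodies. With only the 6 libraries, called genes were 44 and 136. Leaving out each library gave 0 to 2 and 0 to 3 called members and 59 to 144, 113 to 262 and 0 to 1 called genes. The same replicate numbers gave no clear pairing of the samples (r of deviations from -0.12 to 0.156 in 9 pairs, 1 over 0.1). With 3 libraries a group, this check cannot exclude a pairing. The replicate block gave 0 called members with anti-PD1 and 64 and 127 genes. Of 651 member fold changes under the alternatives, 591 kept their direction and their side of the threshold, 34 lost a call, 18 gained one and 8 changed sign. Most of the 651 had no call to lose. The lost calls were those of the called members with anti-PD1. Hspb1 lost its call in 8 of 22 alternatives, Bag3 in 12 of 22 and Hsp90aa1 in 14 of 22. Hspd1 with anti-B7-H3 turned to 0.0097 without anti-B7-H3 2, 0.0072 in limma-voom, 0.1057 with length-scaled counts, 0.1055 without IgG control 2 and 0.0867 without both libraries that stand apart, and ran from -0.1441 to 0.1055 when each library was left out. Hspe1 with anti-B7-H3 turned to -0.1279 without anti-B7-H3 1 (range without each library -0.1279 to 0.5729). Between the antibodies, without anti-PD1 2, Hspe1 turned to 0.0991 (range -0.5659 to 0.0991) and Bag3 to 0.1390 (range -0.6692 to 0.1390). The causes were not tested. Library totals alone moved all genes by -0.0929 and -0.1043 (median log2) in the comparisons with the controls. The lowest count of any member in a library was 150 (Bag3 in IgG control 2), and no member was near the limit of 3 counts.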
